A study of Homo sapiens with 30 samples.

Results

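The 10 genes described here build the contacts between epithelial cells. They were chosen by name: CDH1, EPCAM, OCLN, CLDN1, CLDN4, CLDN7, TJP1, F11R, LSR and MARVELD2. All 10 were present among the 26475 genes of each of 2 count tables, and all 10 passed the filter on low counts in both tables. RNA was sequenced from MDA-MB-231 lineages. MDA-MB-231 is an established line of human breast cancer cells with a mesenchymal character. The genotype of every group is labelled wild type. The 30 libraries formed 10 groups of 3. In the first table, lineages 22, 35 and 45 spent 15 days in a 6-member co-culture that passed a bottleneck every 3 days and were then sorted by FACS, and each was also grown alone (isolation) for about 24 h. In the second table, lineages 03, 10 and 13 and a group labelled Pop were all grown alone for about 24 h. What Pop is was not given in the sources used here. All cells grew in RPMI-1640 with 10% dialyzed serum and 2 mM glutamine. The design text calls each lineage a clone, so a difference between lineages is a difference between clones. Co-culture libraries also differed from isolation libraries in culture time, passaging, sorting and RNA extraction kit, and the effects of these cannot be told apart.

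Epithelial cells hold together through adherens junctions and seal the space between them with tight junctions. E-cadherin (CDH1) binds its like on the neighbouring cell in the adherens junction, and EPCAM is a surface glycoprotein of epithelial cells that associates with claudin-7. Claudins (CLDN1, CLDN4, CLDN7) form the strands of the tight junction, occludin (OCLN) and tricellulin (MARVELD2) are membrane proteins of those strands, and angulin-1 (LSR) brings tricellulin to the corners where 3 cells meet. JAM-A (F11R) is an immunoglobulin-like adhesion molecule beside the strands, and ZO-1 (TJP1) is the scaffold inside the cell that ties them to actin. Loss of these genes' expression is a known feature of the epithelial to mesenchymal transition, in which repressors such as SNAI1, SNAI2, ZEB1 and ZEB2 bind E-box words (CANNTG, in particular CAGGTG and its reverse complement CACCTG) in the promoters of several of them.

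Promoter sequences are shown for 4 genes with wide ranges of level, because E-box words are where the named repressors are known to bind. Sequences came from RefSeq (GRCh38.p14) and run 5′ to 3′ on the gene's strand, from 250 bases before to 50 after a start site. Of the 10 genes 7 had an entry in the promoter set used here. CDH1, EPCAM and F11R had none, so their promoters could not be searched. Capitals mark every CANNTG word, of which CAGGTG and CACCTG are special cases. CANNTG reads the same on both strands.
CLDN1, chr3:190322397-190322696, minus strand: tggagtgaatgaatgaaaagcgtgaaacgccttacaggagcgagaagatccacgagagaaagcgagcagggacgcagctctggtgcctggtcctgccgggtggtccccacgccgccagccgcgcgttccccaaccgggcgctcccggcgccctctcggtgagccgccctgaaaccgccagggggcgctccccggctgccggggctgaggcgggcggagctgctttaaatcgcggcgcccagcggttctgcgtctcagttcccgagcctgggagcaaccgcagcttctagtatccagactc
CLDN7, second of its start sites, chr17:7262429-7262728, minus strand: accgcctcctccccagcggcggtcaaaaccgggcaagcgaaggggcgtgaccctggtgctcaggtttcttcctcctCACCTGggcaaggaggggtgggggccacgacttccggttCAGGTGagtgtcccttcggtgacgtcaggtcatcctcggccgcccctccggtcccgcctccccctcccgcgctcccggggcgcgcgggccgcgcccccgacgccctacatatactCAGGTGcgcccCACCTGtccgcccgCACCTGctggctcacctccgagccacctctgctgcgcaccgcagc
LSR, chr19:35248752-35249051, plus strand: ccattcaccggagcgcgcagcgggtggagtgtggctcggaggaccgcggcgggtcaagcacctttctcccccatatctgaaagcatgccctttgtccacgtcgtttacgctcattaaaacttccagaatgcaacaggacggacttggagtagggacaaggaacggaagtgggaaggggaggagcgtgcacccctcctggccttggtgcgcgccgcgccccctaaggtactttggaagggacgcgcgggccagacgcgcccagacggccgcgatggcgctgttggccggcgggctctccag
OCLN, second of its start sites, chr5:69492540-69492839, plus strand: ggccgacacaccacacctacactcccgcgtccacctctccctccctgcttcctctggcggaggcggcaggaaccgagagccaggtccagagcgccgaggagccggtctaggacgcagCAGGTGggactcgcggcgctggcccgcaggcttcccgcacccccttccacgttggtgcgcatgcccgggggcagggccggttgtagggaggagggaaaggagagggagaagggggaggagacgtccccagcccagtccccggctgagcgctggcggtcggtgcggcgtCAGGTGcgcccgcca
The CLDN7 window held 5 CAGGTG or CACCTG words and the OCLN window 2. These are the start sites with more such words: the first window of CLDN7 held 0 and that of OCLN 1. The CLDN1 and LSR windows held no CANNTG word. For comparison, 20.6% of all 35116 promoters of the same length held CAGGTG or CACCTG, and 68.7% held any CANNTG. These matches describe letters only, and binding was not measured.

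Depth was similar across libraries, with 29817903 to 38843676 counts per library in the first table and 28088449 to 35356195 in the second. Levels are CPM, counts scaled to a common library size after TMM normalization. The sources do not say whether replicate libraries were separate cultures, and p-values therefore measure only the spread between them. In bulk RNA, fewer cells expressing a gene and less RNA per cell cannot be told apart. Over all 14570 genes tested in the first table, the libraries labelled 35 from co-culture lay closer to isolated 45 (root mean square log2 difference 0.781) and isolated 22 (0.964) than to isolated 35 (1.19). Co-culture 22 lay at 0.794 from isolated 22 and 0.811 from isolated 45, and co-culture 45 lay closest to isolated 45 (0.668). Whether co-culture 35 and isolated 35 hold the same lineage was not tested, and each result below that uses label 35 carries this limit. VIM, a mesenchymal filament gene, stood at 2333 to 5910.4 CPM in group means, and CDH2 (N-cadherin) at 0.394 to 1.42 CPM. KRT18, an epithelial keratin of luminal cells, stood at 280.1 to 845 CPM, and 5 of the 8 luminal markers listed reached 1 CPM in each group. TYROBP and CD3E, markers of leukocytes, were at most 0.00954 CPM in any group. Of the 6 leukocyte markers listed, however, 2 reached 1 CPM in each group. That list summed to 57.7 to 344 CPM in the first table and 85.4 to 220 CPM in the second.

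In co-culture the junction genes spanned a narrower range across the 3 lineage labels than in isolation, and most of that difference rested on isolated 35. Of the 10 genes, 2 spanned at least 2-fold between the highest and lowest group mean of log2 CPM among the 3 co-culture groups, against 7 among the 3 isolation groups. Over all 14570 genes the shares spanning 2-fold were 9.27% in co-culture and 25.2% in isolation, so all genes together narrowed too. Without the groups labelled 35, 1 of the 10 genes spanned 2-fold between co-culture 22 and 45 and 3 between isolated 22 and 45, against 4.85% and 8.24% of all genes. The median span of the 10 genes was 1.25-fold among co-culture groups and 2.54-fold among isolation groups, and without label 35 it was 1.23-fold and 1.37-fold. CLDN1 had a span of group means of 1.34-fold among co-culture groups and 22.1-fold among isolation groups, but of 1.26-fold and 1.37-fold without label 35. CLDN7 spanned 1.18-fold among co-culture groups and 12.5-fold among isolation groups, and 1.18-fold and 1.45-fold without label 35. LSR, in which isolated 45 was lowest, spanned 1.39-fold in co-culture and 4.04-fold in isolation without label 35. MARVELD2 went the other way, at 1.5-fold among co-culture groups and 1.03-fold among isolation groups, with or without label 35.

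**Figure D1:**
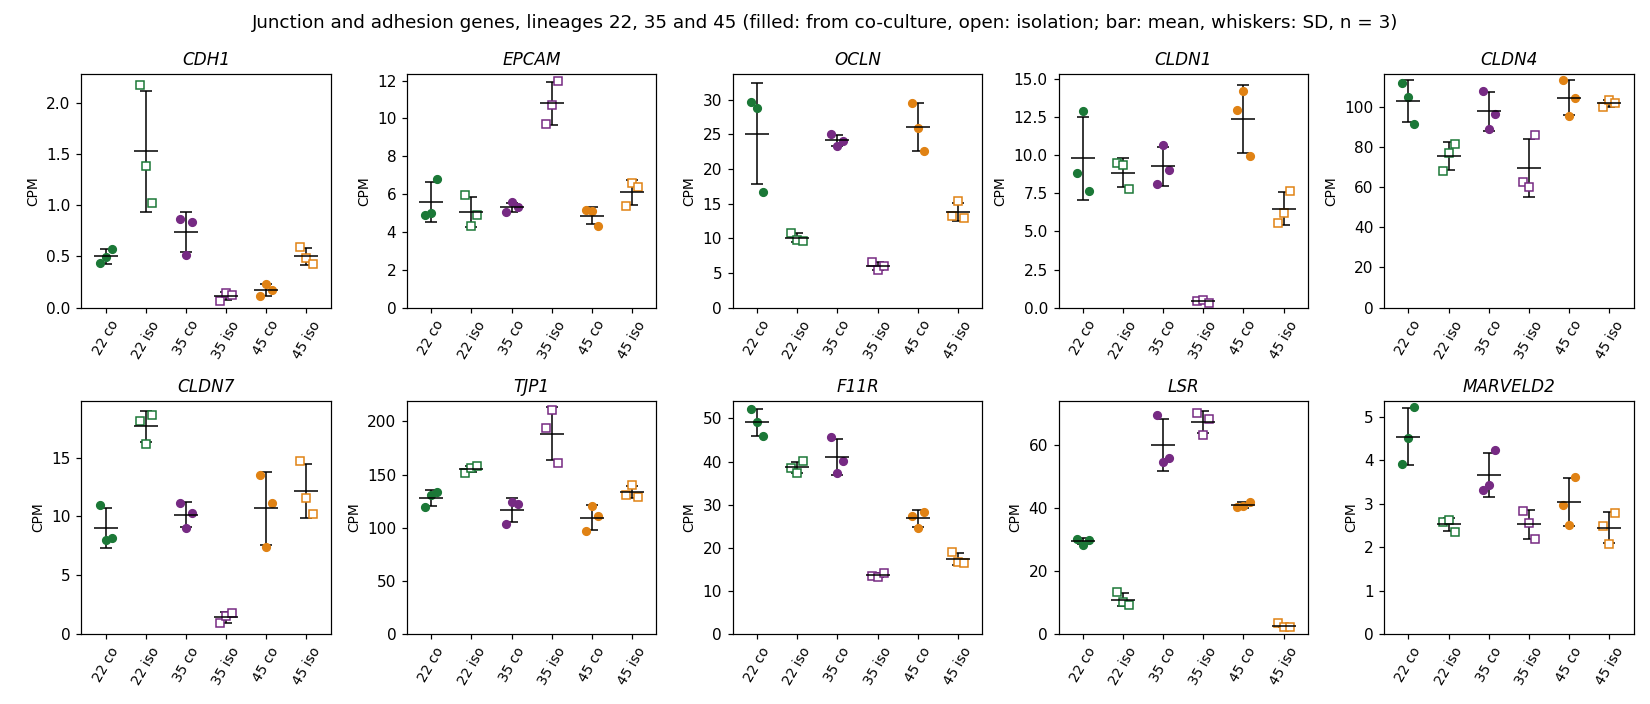
CPM (linear axes from 0) of each gene in lineages 22, 35 and 45, with co-culture (filled) left of isolation (open) for each label. Points are libraries, the bar is the mean and the whiskers are 1 SD (n = 3). In CLDN1 and CLDN7 the isolated 35 libraries sit near 0 and all co-culture libraries sit above them, and in LSR the isolated 45 libraries are lowest.

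Per kilobase of annotated exon, which allows genes to be set beside each other, CLDN4 and TJP1 were among the most abundant of the 10. In the first table the group means ran from 16.6 to 24.9 CPM per kb for CLDN4, from 11.3 to 19.4 for TJP1 and from 1.06 to 26.4 for LSR. F11R followed at 2.83 to 10.1, CLDN7 at 0.684 to 8.55, EPCAM at 2.42 to 5.37, OCLN at 0.917 to 3.97 and CLDN1 at 0.115 to 3.56 CPM per kb. MARVELD2 lay at 0.500 to 0.928 and CDH1 at 0.0219 to 0.306 CPM per kb. CDH1 was below every group mean of the other 9 genes on this scale except that of CLDN1 in isolated 35.

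Co-culture libraries labelled 35 had 7 of the 10 genes higher and 2 lower than isolated 35, where 32.7% of all genes were higher and 32.9% lower (65.5% called in all, edgeR, BH-adjusted p below 0.05). Label 22 had 5 higher and 3 lower, against 27% and 30% of all genes (56.9% called). Label 45 had 4 higher and 2 lower, against 18.6% and 23.2% (41.8% called). The median log2 fold change of the 10 genes was 0.25 in 22, 1.06 in 35 and 0.17 in 45, where that of all genes was -0.04, 0.01 and -0.03. OCLN and F11R were higher and TJP1 was lower under all 3 labels. LSR was higher in 22 and 45, MARVELD2 and CLDN4 in 22 and 35, and CLDN1 in 35 and 45. CDH1 was lower in 22 and 45 and higher in 35.

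**Figure D2:**
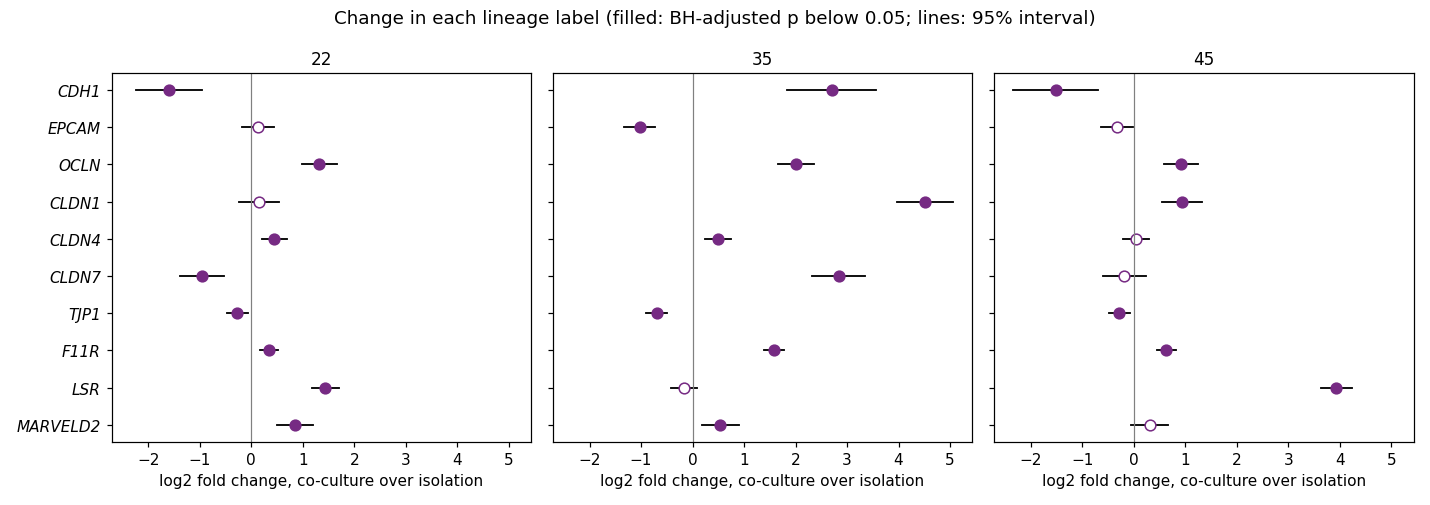
Log2 fold change of each gene in libraries from co-culture over isolation, 1 panel for each lineage label, with 95% intervals (n = 3 in each group). Filled points passed a BH-adjusted p of 0.05, and the largest are CLDN1 in 35 at 4.51 and LSR in 45 at 3.93.

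The co-culture changes differed between the 3 labels for 9 of the 10 genes (F test of the interaction, edgeR), where 55.2% of all genes passed. The tenth, MARVELD2, had an adjusted p of 0.16. Leaving out 1 library left 7 to 9 genes. CLDN4 (adjusted p = 0.046) lost its call (0.057 to 0.12) without any 1 library other than isolated 22 replicate 3, co-culture 22 replicate 3, isolated 35 replicate 3, co-culture 35 replicate 2 or co-culture 45 replicate 1. TJP1 (0.021) lost its call without isolated 35 replicate 1 (0.053), isolated 35 replicate 2 (0.088) or co-culture 35 replicate 1 (0.081). Between labels 35 and 45, the change was larger for 6 and smaller for 3 of the 10 genes (22.8% of all genes larger and 19.5% smaller, 42.3% called). Between 22 and 35 it was larger for 3 and smaller for 5 (24.2% and 25.4% of all genes, 49.6% called). Between 22 and 45 it was smaller for 2 and larger for none (8.08% of all genes smaller and 9.25% larger, 17.3% called), which were LSR (difference -2.50 ± 0.19 log2, adjusted p = 3.7e-08) and CLDN1 (difference -0.78 ± 0.26 log2, adjusted p = 0.042). The CLDN1 difference lost its call, with adjusted p from 0.052 to 0.11, without isolated 22 replicate 1 or 2, co-culture 22 replicate 1 or 3, isolated 35 replicate 1, co-culture 35 replicate 3, isolated 45 replicate 1 or 2, or co-culture 45 replicate 1 or 2. It was also lost with neither group labelled 35 in the fit, where its adjusted p was 0.064. Between 35 and 45 the CLDN4 call was lost (adjusted p from 0.054 to 0.10) without isolated 35 replicate 1 or 2, co-culture 35 replicate 1 or 3, isolated 45 replicate 2 or 3, or co-culture 45 replicate 2 or 3. The TJP1 call there was lost (0.052 to 0.079) without isolated 35 replicate 2, co-culture 35 replicate 1, isolated 45 replicate 3 or co-culture 45 replicate 2. Between 22 and 35 the calls of OCLN (0.051) and TJP1 (0.059) were lost without isolated 35 replicate 2, and that of TJP1 also without co-culture 35 replicate 1 (0.053). CLDN7 gained a call between 22 and 45 (adjusted p from 0.013 to 0.048) without co-culture 22 replicate 1, isolated 35 replicate 1, isolated 45 replicate 1 or co-culture 45 replicate 2, and CLDN4 without isolated 35 replicate 3 (0.036) or with neither group labelled 35 in the fit (0.043). OCLN gained a call between 22 and 45 without co-culture 22 replicate 3 (adjusted p = 0.0082). The 3 labels were sorted from a co-culture under the same protocol, and these differences share libraries, so they are not independent of each other.

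Of the 2 adhesion molecules, CDH1 changed in opposite directions under different labels, and EPCAM was lower in co-culture 35 and passed under no other label. CDH1 (chromosome 16, 68737225 to 68835548, plus strand, GRCh38) was low in every group. It had 0.431, 0.498 and 0.572 CPM in co-culture 22 and 2.17, 1.38 and 1.02 CPM in isolated 22 (log2 fold change -1.60 ± 0.31, adjusted p = 2.0e-04). In label 35 it had 0.864, 0.516 and 0.835 CPM in co-culture and 0.0646, 0.139 and 0.124 CPM in isolation (log2 fold change 2.70 ± 0.42, adjusted p = 1.1e-05). In label 45 it had 0.113, 0.234 and 0.17 CPM in co-culture and 0.588, 0.486 and 0.426 CPM in isolation (log2 fold change -1.52 ± 0.40, adjusted p = 0.0045). The groups did not overlap under any label, but the isolated 35 libraries held only 2, 5 and 4 counts and the co-culture 45 libraries 4, 8 and 6. EPCAM (chromosome 2, 47345158 to 47387601, plus strand) had 5.07, 5.56 and 5.3 CPM in co-culture 35 and 9.72, 10.7 and 12 CPM in isolated 35 (log2 fold change -1.02 ± 0.15, adjusted p = 3.8e-06). The isolated 35 libraries were above every other library of the table. In label 22 the EPCAM groups overlapped, at 5.57 ± 1.06 CPM in co-culture and 5.05 ± 0.815 in isolation. In label 45 they did not overlap, at 4.87 ± 0.464 CPM in co-culture and 6.09 ± 0.649 in isolation, yet the difference did not pass (log2 fold change -0.32 ± 0.15, adjusted p = 0.084).

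Among the claudins, CLDN1 and CLDN7 differed most. CLDN1 (chromosome 3, 190305701 to 190322475, minus strand), a barrier-forming claudin, had 8.14, 10.7 and 9.01 CPM in co-culture 35 and 0.452, 0.471 and 0.28 CPM in isolated 35 (log2 fold change 4.51 ± 0.26, adjusted p = 1.2e-11, 22.8-fold). In label 45 it had 13, 14.2 and 9.93 CPM in co-culture and 5.55, 6.24 and 7.69 CPM in isolation (log2 fold change 0.93 ± 0.18, adjusted p = 4.9e-04). In label 22 the groups overlapped, at 9.8 ± 2.74 CPM in co-culture and 8.87 ± 0.959 CPM in isolation. Isolated 35 was the single group of the first table below 1 CPM. CLDN7 (chromosome 17, 7259903 to 7263983, minus strand), the partner of EPCAM, had 11.1, 8.99 and 10.3 CPM in co-culture 35 and 0.904, 1.52 and 1.81 CPM in isolated 35 (log2 fold change 2.84 ± 0.24, adjusted p = 1.1e-08, 7.15-fold). It was lower in co-culture 22, at 11, 7.97 and 8.18 CPM, against 18.2, 16.2 and 18.6 CPM in isolated 22 (log2 fold change -0.96 ± 0.20, adjusted p = 5.9e-04). In label 45 the groups overlapped, at 10.7 ± 3.07 CPM in co-culture and 12.2 ± 2.3 in isolation. CLDN7 overlaps ELP5 on the opposite strand and the same-strand transcript AC003688.1, so its counts are uncertain where the counting split such reads.

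CLDN4 (chromosome 7, 73799542 to 73832693, plus strand), a claudin of many simple epithelia, varied little. It had 112, 105 and 91.5 CPM in co-culture 22 and 68, 77.1 and 81.5 CPM in isolated 22 (log2 fold change 0.45 ± 0.12, adjusted p = 0.0033). In label 35 it had 108, 89 and 96.7 CPM in co-culture and 62.6, 60.1 and 86.2 CPM in isolation (log2 fold change 0.49 ± 0.12, adjusted p = 0.0012), a difference in which the isolated library of replicate 3 nearly reached the lowest co-culture library. In label 45 the groups overlapped, with a 95% interval of the log2 fold change from -0.21 to 0.29. The region beside CLDN4 differed too: the median over 50 flanking genes was 0.31 in label 22, 0.09 in 35 and -0.23 in 45.

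Of the MARVEL-domain proteins of the strands, occludin was higher in co-culture under all 3 labels and tricellulin (MARVELD2) under 22 and 35. OCLN (chromosome 5, 69492292 to 69558104, plus strand) had 29.7, 28.8 and 16.7 CPM in co-culture 22 and 10.8, 9.68 and 9.68 CPM in isolated 22 (log2 fold change 1.32 ± 0.16, adjusted p = 1.8e-06). Replicate 3 of co-culture 22 lay far below the other two but above all isolated ones. In label 35 OCLN had 25, 23.3 and 24 CPM in co-culture and 6.55, 5.43 and 6.04 CPM in isolation (log2 fold change 2.01 ± 0.17, adjusted p = 3.7e-09, 4.02-fold). In label 45 it had 29.5, 26 and 22.6 CPM in co-culture and 13.2, 15.3 and 12.9 CPM in isolation (log2 fold change 0.91 ± 0.16, adjusted p = 1.5e-04). No co-culture library was as low as any isolation library of this table. No pair of co-culture groups passed in OCLN, with fitted log2 differences between them of 0.06, -0.05 and -0.11 and 95% intervals within -0.43 and 0.38. MARVELD2 (chromosome 5, 69415065 to 69444330, plus strand) had 3.9, 4.51 and 5.21 CPM in co-culture 22 and 2.59, 2.63 and 2.35 CPM in isolated 22 (log2 fold change 0.85 ± 0.17, adjusted p = 3.1e-04). It had 3.31, 3.44 and 4.23 CPM in co-culture 35 and 2.84, 2.55 and 2.18 CPM in isolated 35 (log2 fold change 0.54 ± 0.17, adjusted p = 0.0099). Without co-culture 35 replicate 3 this adjusted p was 0.062. In label 45 the groups overlapped, at 3.04 ± 0.556 CPM in co-culture and 2.45 ± 0.352 CPM in isolation. OCLN and MARVELD2 lie close together on chromosome 5, and the 50 genes around them had medians between -0.01 and 0.17 in the 3 comparisons.

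LSR (chromosome 19, 35248330 to 35267964, plus strand), the angulin that recruits tricellulin, had the widest range of the 10 genes among isolated 22, 35 and 45. It had 40.4, 40.4 and 41.9 CPM in co-culture 45 and 3.36, 2.38 and 2.33 CPM in isolated 45 (log2 fold change 3.93 ± 0.15, adjusted p = 5.1e-13, 15.2-fold). In label 22 it had 30.1, 28.4 and 29.6 CPM in co-culture and 13.2, 10.2 and 9.21 CPM in isolation (log2 fold change 1.43 ± 0.13, adjusted p = 2.7e-08). In label 35 the groups overlapped, at 59.8 ± 8.2 CPM in co-culture and 67 ± 3.46 CPM in isolation (log2 fold change -0.17 ± 0.12, adjusted p = 0.22). In isolation the order of the lineages was 45, 22 and 35 with no overlap, and 35 was 25-fold above 45 (log2 fold change 4.64 ± 0.15, adjusted p = 1.1e-15). In co-culture the order was 22, 45 and 35, again with no overlap, with 35 above 45 (log2 fold change 0.55 ± 0.12, adjusted p = 0.0031) and 22 below 45 (log2 fold change -0.48 ± 0.12, adjusted p = 0.0059). The 50 genes flanking LSR had a median log2 fold change of 0.03 between co-culture 45 and isolated 45, and of -0.29 between co-culture 22 and co-culture 45.

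F11R (chromosome 1, 160995211 to 161021348, minus strand) was higher in co-culture under all labels. It had 45.7, 37.4 and 40.1 CPM in co-culture 35 and 13.6, 13.2 and 14.3 CPM in isolated 35 (log2 fold change 1.59 ± 0.09, adjusted p = 8.4e-12). It had 27.4, 24.7 and 28.4 CPM in co-culture 45 and 18.9, 16.7 and 16.5 CPM in isolated 45 (log2 fold change 0.63 ± 0.09, adjusted p = 2.0e-05). In label 22 it had 52.1, 49.1 and 46 CPM in co-culture and 38.5, 37.4 and 40.05 CPM in isolation (log2 fold change 0.34 ± 0.09, adjusted p = 0.0023). F11R overlaps a transcript of the same strand (AL591806.3), so its counts are uncertain there. Antisense transcripts also overlap CDH1, OCLN, TJP1 and LSR, and reads of those could not be told apart if counting ignored strand.

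TJP1 (chromosome 15, 29699367 to 29968865, minus strand) was lower in co-culture by a small amount under all labels, as its neighbours were. It had 103, 124 and 123 CPM in co-culture 35 and 194, 211 and 161 CPM in isolated 35 (log2 fold change -0.69 ± 0.10, adjusted p = 3.9e-06). It had 119.5, 131 and 134 CPM in co-culture 22 and 152, 156 and 158 CPM in isolated 22 (log2 fold change -0.28 ± 0.10, adjusted p = 0.022). In label 45 it had 96.8, 121 and 111 CPM in co-culture and 131, 140.1 and 129 CPM in isolation (log2 fold change -0.29 ± 0.10, adjusted p = 0.025). The 36 genes flanking TJP1 had median log2 fold changes of -0.31 in 22, -0.65 in 35 and -0.34 in 45, close to those of TJP1 itself. The calls in 22 and 45 depended on single libraries: without isolated 22 replicate 2, isolated 22 replicate 3 or co-culture 22 replicate 1 the adjusted p in 22 was 0.053, 0.061 and 0.088, and without isolated 45 replicate 2 or co-culture 45 replicate 1 that in 45 was 0.096 and 0.13.

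**Figure D3:**
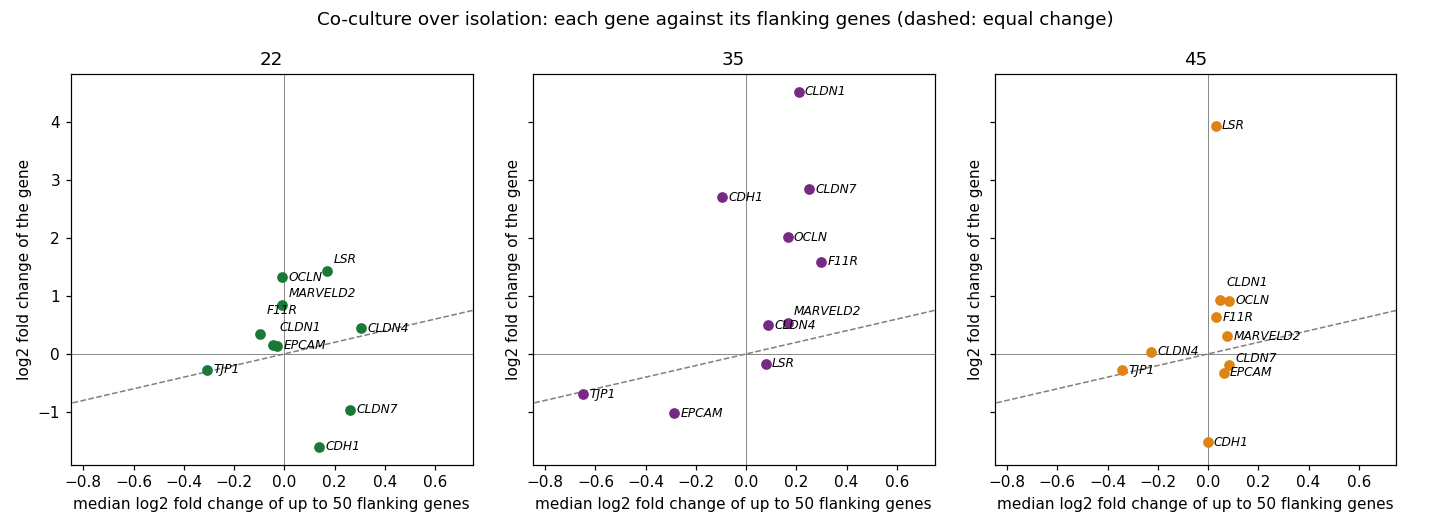
Log2 fold change of each gene in co-culture over isolation (vertical) against the median of up to 50 flanking tested genes (horizontal), for labels 22, 35 and 45. The dashed line marks equal change. TJP1 lies near that line in each panel, at -0.69 against a flanking median of -0.65 in 35, while CLDN1 in 35 and LSR in 45 lie far above it.

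Between lineages in isolation, 22 was higher than 35 in 5 of the 10 genes and lower in 3 (32.2% and 31.4% of all genes, 63.6% called). Higher were CDH1, CLDN1, CLDN7, F11R and OCLN, with log2 differences of 3.74, 4.45, 3.64, 1.5 and 0.75, and lower were LSR, EPCAM and TJP1, with -2.62, -1.09 and -0.28. Medians of their flanking genes, in the same order, were -0.03, 0.22, -0.08, 0.41, -0.01, -0.47, -0.27 and -0.33, so TJP1 lay close to its neighbours. The TJP1 call was lost without isolated 22 replicate 1 (adjusted p = 0.053), isolated 35 replicate 1 (0.050) or isolated 35 replicate 2 (0.11). Isolated 35 against isolated 45 had 3 genes higher (LSR, EPCAM, TJP1) and 6 lower (CLDN1, CLDN7, CDH1, OCLN, CLDN4, F11R), where 24.3% of all genes were higher and 27.6% lower (51.8% called). Their flanking medians, in that order, were -0.02, 0.17 and 0.46 for the higher genes and -0.13, -0.08, -0.01, -0.005, -0.08 and -0.39 for the lower. Isolated 22 against isolated 45 had 4 genes higher and 2 lower (18.6% and 19.8% of all genes, 38.4% called). LSR, CDH1, F11R and CLDN7 were the higher genes, at log2 2.02, 1.60, 1.15 and 0.54, and OCLN and CLDN4 the lower ones, at -0.46 and -0.43. Flanking medians in the same order were -0.52, -0.04, 0.05, -0.19, -0.004 and -0.56, so the neighbours of CLDN4 were lower too. Whether the regions bear on these calls was not tested. The CLDN7 call was lost without any 1 of the isolated 22 libraries, isolated 45 replicate 2 or 3 or co-culture 35 replicate 3, where its adjusted p ran from 0.050 to 0.15. That of OCLN was lost without isolated 22 replicate 2 or 3 or isolated 45 replicate 2, where it ran from 0.086 to 0.12, and with neither group labelled 35 in the fit (0.057). CLDN1 gained a call between 22 and 45 without co-culture 22 replicate 2 or 3 or isolated 45 replicate 3 (adjusted p from 0.033 to 0.044), and CLDN4 between 22 and 35 without isolated 35 replicate 3 (0.021). CLDN1 between 22 and 45 was also called with RLE normalization (0.0498), a stricter filter of 5 CPM in 3 libraries (0.043), a replicate block (0.041) or the compared groups alone (0.014). TJP1 between 22 and 45 gained a call with that filter (0.045) or the compared groups alone (0.0029).

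Between lineages from co-culture, fewer of the genes differed. Co-culture 22 against co-culture 35 had F11R higher and LSR lower (2 of 10, against 15.6% of all genes higher and 15.5% lower, 31.1% called). The F11R difference (log2 fold change 0.26 ± 0.09, adjusted p = 0.029) lost its call without co-culture 22 replicate 1 or 2 or co-culture 35 replicate 2 or 3, where its adjusted p ran from 0.060 to 0.15. Co-culture 22 against co-culture 45 had F11R (log2 0.87), CDH1 (1.52) and MARVELD2 (0.58) higher and LSR (-0.48) lower (4 of 10, against 13.2% of all genes higher and 12% lower, 25.2% called). The MARVELD2 call was lost without co-culture 22 replicate 3 (adjusted p = 0.076) or co-culture 45 replicate 2 (0.078). Co-culture 35 against co-culture 45 had CDH1 (2.08), F11R (0.61) and LSR (0.55) higher and none lower (3 of 10, against 6.42% of all genes higher and 6.28% lower, 12.7% called), and leaving out any 1 library left 3 called. In every co-culture pair the other 6 genes, EPCAM, OCLN, CLDN1, CLDN4, CLDN7 and TJP1, did not pass, except that without co-culture 22 replicate 2 CLDN1 was lower in 22 than in 45 (adjusted p = 0.023).

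In the second table, CDH1, CLDN1, CLDN7 and F11R were lower in lineages 10 and 13 than in Pop, and CDH1, OCLN and MARVELD2 were lower in lineage 03. Isolated 03 against Pop had 2 of the 10 genes higher and 3 lower (23.2% and 25.5% of all genes, 48.7% called), 10 against Pop 1 higher and 6 lower (18.8% and 23.5%, 42.3% called), and 13 against Pop 3 higher and 5 lower (21% and 24.2%, 45.2% called). The median log2 fold change of the 10 genes was -0.13 in 03, -0.51 in 10 and -0.54 in 13, and that of all genes -0.03, -0.02 and -0.01. LSR was higher and CDH1 lower in all 3 lineages. Pop replicate 1 stood apart from the rest of its group: the chi-square per gene between its counts and those of replicates 2 and 3 was 53.7 and 73.7, against 6.38 between replicates 2 and 3 and 5.09 to 45.4 for pairs within the other groups of both tables. It held the lowest OCLN, MARVELD2, CLDN4, TJP1 and F11R levels of Pop and the highest EPCAM, LSR and CLDN1 levels. Without it 5 of the 10 genes were called in 03, 7 in 10 and 8 in 13, and in 13 CLDN4 lost its call (adjusted p = 0.090) and TJP1 gained one (0.0046).

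**Figure D4:**
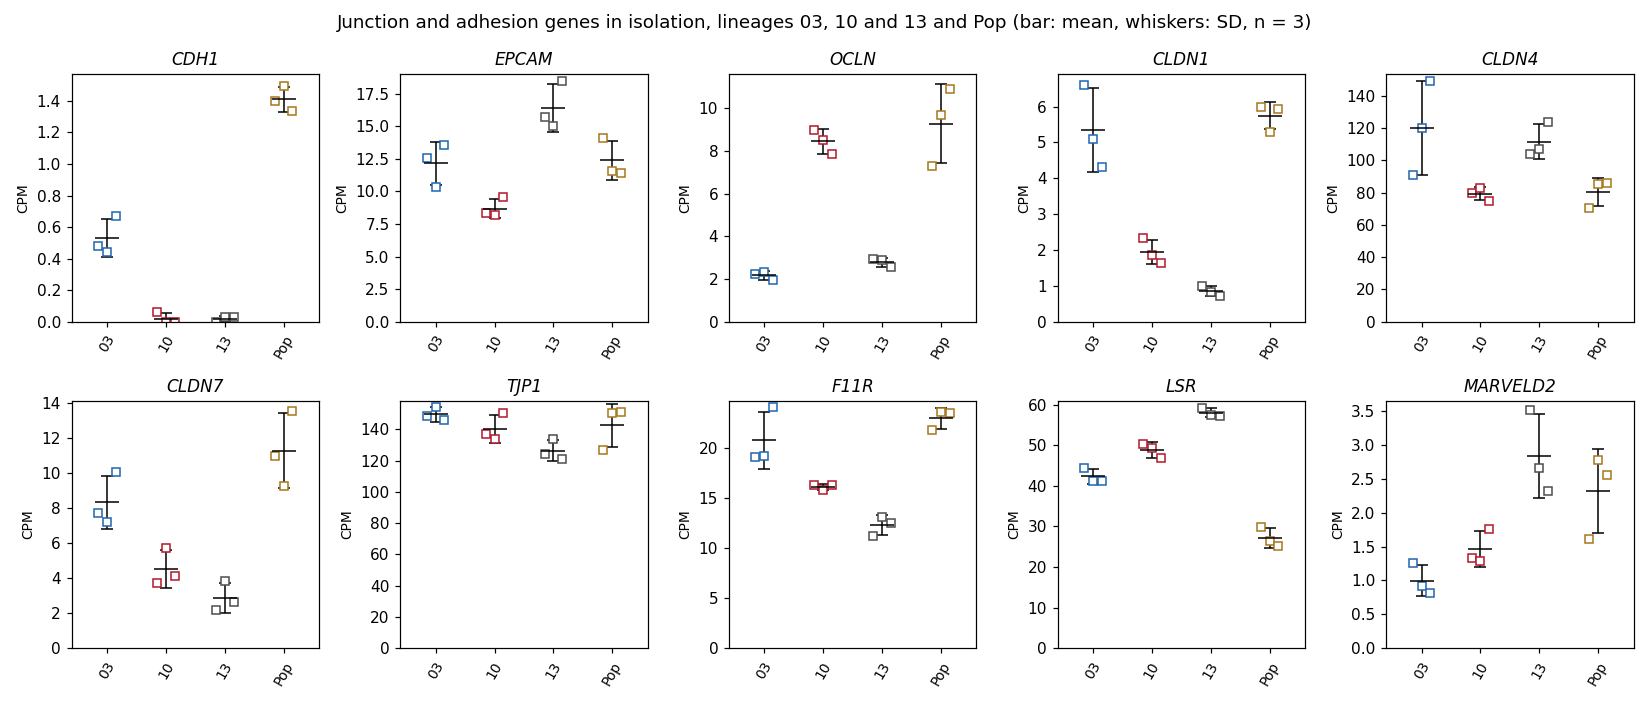
CPM (linear axes from 0) of each gene in isolated lineages 03, 10 and 13 and in Pop. Squares are libraries, the bar is the mean and the whiskers are 1 SD (n = 3). CDH1 lies at or near 0 in 10 and 13, OCLN is lowest in 03 and 13, and LSR is lowest in Pop.

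CDH1 had 0.48, 0.444 and 0.668 CPM in lineage 03, 0.0595, 0 and 0 in 10 and 0, 0.0278 and 0.0286 in 13, against 1.4, 1.49 and 1.34 CPM in Pop. Lineages 10 and 13 each held 2 counts in all, against 142 in Pop. The ratio of depth-scaled counts was 0.0143 for 10 over Pop (95% interval 0.00171 to 0.0526) and 0.0135 for 13 over Pop (0.00161 to 0.0495), intervals that cover counting error only. Lineage 03 was lower than Pop by less (log2 fold change -1.40 ± 0.31, adjusted p = 0.0021). EPCAM had 12.6, 10.3 and 13.6 CPM in 03, 8.33, 8.2 and 9.54 in 10 and 15.7, 15 and 18.5 in 13, against 14.1, 11.6 and 11.4 CPM in Pop. It was lower in 10 (log2 fold change -0.51 ± 0.13, adjusted p = 0.0066) and higher in 13 (log2 fold change 0.41 ± 0.13, adjusted p = 0.019), but the call in 13 was lost without 13 replicate 3, Pop replicate 2 or Pop replicate 3 (adjusted p from 0.065 to 0.081). The 50 genes flanking EPCAM had a median log2 fold change over Pop of 0.35 in 13, 0.26 in 10 and -0.40 in 03, so EPCAM lay near its neighbours in 13 and not in 10, where it was lower. It did not follow them in 03 either, where its mean was 12.2 CPM against 12.4 in Pop.

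CLDN1 had 6.61, 5.09 and 4.31 CPM in 03, 2.32, 1.86 and 1.64 in 10 and 0.989, 0.834 and 0.715 in 13, against 6.00, 5.3 and 5.92 CPM in Pop. It was lower in 10 (log2 fold change -1.56 ± 0.18, adjusted p = 1.6e-05) and 13 (log2 fold change -2.76 ± 0.20, adjusted p = 1.8e-07, 6.76-fold), and 03 overlapped Pop. CLDN7 had 7.72, 7.18 and 10.05 CPM in 03, 3.69, 5.73 and 4.09 in 10 and 2.18, 3.81 and 2.6 in 13, against 11, 9.26 and 13.5 CPM in Pop. Its pattern was like that of CLDN1, with 10 (log2 fold change -1.32 ± 0.22, adjusted p = 3.1e-04) and 13 (log2 fold change -1.97 ± 0.23, adjusted p = 1.3e-05) lower and 03 not passing (log2 fold change -0.44 ± 0.21, adjusted p = 0.1). CLDN4 had 90.7, 119.7 and 149 CPM in 03, 79.98, 83 and 75 in 10 and 104, 107 and 124 in 13, against 70.2, 85 and 85.7 CPM in Pop. It was higher in 03 (log2 fold change 0.58 ± 0.15, adjusted p = 0.005) and in 13 (log2 fold change 0.47 ± 0.15, adjusted p = 0.017), but the call in 13 was lost without 13 replicate 3 (adjusted p = 0.063) or Pop replicate 1 (0.090).

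OCLN had 2.25, 2.34 and 1.94 CPM in 03, 8.99, 8.53 and 7.84 in 10 and 2.94, 2.89 and 2.55 in 13, against 7.27, 9.67 and 10.9 CPM in Pop. It was lower in 03 (log2 fold change -2.09 ± 0.16, adjusted p = 2.1e-07, 4.27-fold) and 13 (log2 fold change -1.73 ± 0.15, adjusted p = 9.9e-07), whereas 10 overlapped Pop. MARVELD2, its neighbour on chromosome 5, had 1.26, 0.917 and 0.82 CPM in 03, 1.34, 1.29 and 1.77 in 10 and 3.52, 2.67 and 2.32 in 13, against 1.61, 2.78 and 2.56 CPM in Pop. It was lower in 03 (log2 fold change -1.23 ± 0.26, adjusted p = 0.0015) and did not pass in 13 (log2 fold change 0.29 ± 0.23, adjusted p = 0.33). The call of 10 against Pop (log2 fold change -0.66 ± 0.24, adjusted p = 0.043), whose groups overlapped, was lost without 10 replicate 1 (adjusted p = 0.12) or 2 (0.13), Pop replicate 2 (0.16) or 3 (0.12), 03 replicate 2 (0.055) or 13 replicate 2 (0.054), and also by DESeq2 (0.055) and with a replicate block (0.068). In 13 the genes flanking OCLN had a median log2 fold change over Pop of -0.33, in 10 of 0.22 and in 03 of 0.03.

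LSR had 44.4, 41.3 and 41.2 CPM in 03, 50.4, 49.4 and 46.8 in 10 and 59.3, 57.5 and 57.2 in 13, against 29.9, 26.4 and 25.2 CPM in Pop. It was higher in 13 (log2 fold change 1.09 ± 0.08, adjusted p = 1.5e-07), in 10 (log2 fold change 0.85 ± 0.08, adjusted p = 2.0e-06) and in 03 (log2 fold change 0.64 ± 0.08, adjusted p = 1.7e-05), with no overlap with Pop in any. F11R had 19.1, 19.2 and 24.1 CPM in 03, 16.3, 15.8 and 16.4 in 10 and 11.2, 13.1 and 12.5 in 13, against 21.8, 23.6 and 23.6 CPM in Pop. It was lower in 10 (log2 fold change -0.51 ± 0.10, adjusted p = 0.0011) and 13 (log2 fold change -0.90 ± 0.10, adjusted p = 9.8e-06), and 03 did not pass (log2 fold change -0.14 ± 0.10, adjusted p = 0.25) except without 03 replicate 3 (adjusted p = 0.032). TJP1 did not pass against Pop in any of the 3 lineages, with log2 fold changes of 0.07 in 03, -0.02 in 10 and -0.18 in 13 and 95% intervals within -0.35 and 0.24. Without Pop replicate 1, TJP1 was lower in 13 (adjusted p = 0.0046).

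**Figure D5:**
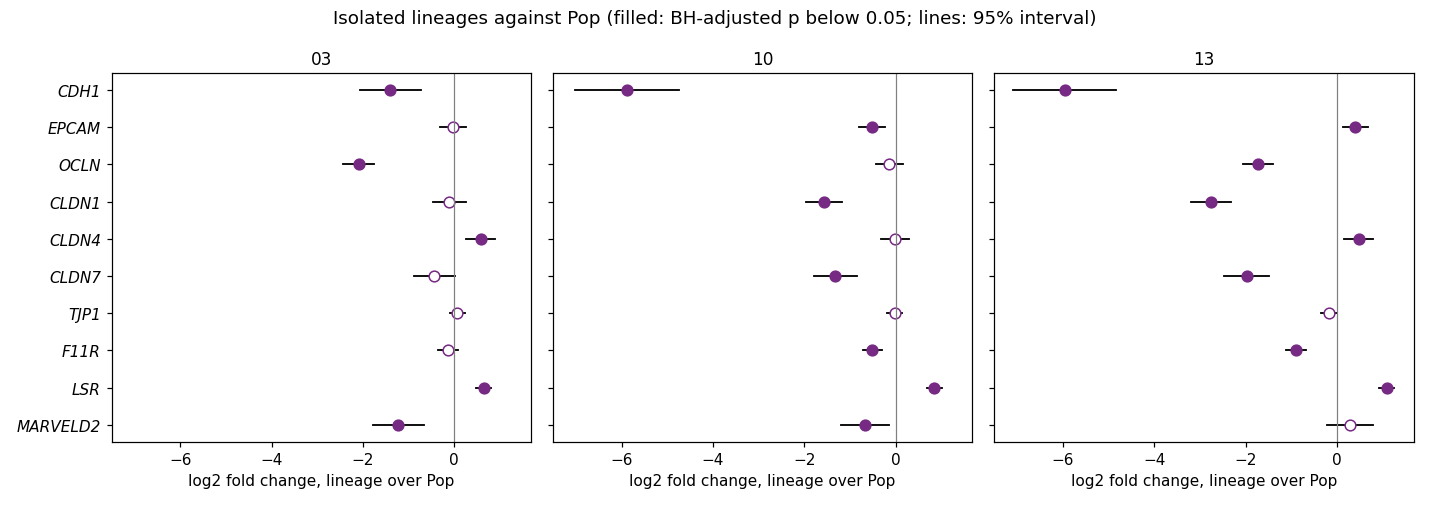
Log2 fold change of each gene in isolated lineages 03, 10 and 13 over Pop, with 95% intervals (n = 3 in each group). Filled points passed a BH-adjusted p of 0.05. CDH1 in 10 and 13 is drawn from the fit and rests on 2 counts in each lineage.

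Between the single lineages of the second table, 03 had 6 genes higher and 2 lower than 10 (26.4% and 25% of all genes, 51.4% called) and 5 higher and 3 lower than 13 (26.1% and 27.1%, 53.2% called). Lineage 10 had 4 higher and 4 lower than 13 (16.6% and 18%, 34.6% called). CLDN1 was higher in 03 than in 13 (log2 fold change 2.65 ± 0.20, adjusted p = 1.7e-07) and in 10 than in 13 (log2 fold change 1.2 ± 0.21, adjusted p = 7.1e-04). OCLN was higher in 10 than in 13 (log2 fold change 1.60 ± 0.15, adjusted p = 3.6e-06) and lower in 03 than in 10 (log2 fold change -1.96 ± 0.16, adjusted p = 3.2e-07). CDH1 was 26.4-fold higher in 03 than in 10 by count ratio (95% interval 6.94 to 224.2), and 28.1-fold higher in 03 than in 13 (7.37 to 238.0). Against 10, lineage 03 had CDH1, CLDN1, CLDN7, CLDN4, EPCAM and F11R higher and OCLN and LSR lower. Against 13, lineage 03 had CDH1, CLDN1, CLDN7, F11R and TJP1 higher and MARVELD2, LSR and EPCAM lower. Against 13, lineage 10 had OCLN, CLDN1, CLDN7 and F11R higher and MARVELD2, EPCAM, CLDN4 and LSR lower. The LSR call of 03 against 10 (log2 fold change -0.21 ± 0.08, adjusted p = 0.034) was lost without 03 replicate 2 or 3 or 10 replicate 1 or 2 (adjusted p from 0.087 to 0.11). That of 10 against 13 (log2 fold change -0.25 ± 0.08, adjusted p = 0.021) was lost without 10 replicate 2 or 3 or 13 replicate 1 (0.054 to 0.090). The CLDN4 call of 10 against 13 was lost without 10 replicate 3 (0.071) or 13 replicate 3 (0.072). In 03 against 13 EPCAM was at log2 -0.43 and the 50 genes flanking it had a median of -0.62. Of 03 against 13, the EPCAM call was lost without 03 replicate 2 (0.060) or 13 replicate 3 (0.056), and the TJP1 call without 03 replicate 2 (0.075), 13 replicate 1 (0.063) or 13 replicate 3 (0.075). That of CLDN7 between 10 and 13, whose groups overlapped, was lost without 03 replicate 1 or 2, 10 replicate 2 or 3, or 13 replicate 1 or 3 (0.055 to 0.22). Without Pop replicate 1, OCLN was lower in 03 than in 13 (0.042) and TJP1 higher in 10 than in 13 (0.039).

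Genes of the same contacts outside the 10 were counted from lists drawn up by function. Of all genes, 32.7% were higher and 32.9% lower in co-culture 35, 27% and 30% in 22, and 18.6% and 23.2% in 45. Of 17 other tight junction membrane proteins and scaffolds, 13 were tested and 7 were higher in co-culture 35 and 3 lower. ESAM, an adhesion molecule of the same immunoglobulin-like class as F11R, had 125 CPM in co-culture and 6.65 in isolation (log2 4.23 ± 0.09), and the cingulin relative CGNL1 had 8.77 CPM in co-culture and 0.802 in isolation (log2 3.44 ± 0.24). In label 22, 7 of the 13 were higher and 1 lower, and in 45, 3 higher and 1 lower. Of 10 tested desmosome genes 7 were higher and 2 lower in co-culture 35, 4 higher and 2 lower in 22, and 3 higher and 3 lower in 45. Desmocollin DSC2 had 8.69 CPM in co-culture and 0.174 in isolation (log2 5.63 ± 0.24), plakophilin PKP2 had 104 CPM in co-culture and 25.7 in isolation (log2 2.02 ± 0.10), and envoplakin (EVPL) had 40.4 CPM in co-culture and 111 in isolation (log2 -1.46 ± 0.09). Of 9 tested epithelial transcription and splicing regulators 8 were higher and 1 lower in co-culture 35, and in 22 and 45 1 was higher and 2 lower. EHF, an epithelial ETS factor, had 50.8 CPM in co-culture and 17.3 in isolation (log2 1.55 ± 0.15) in label 35 but 19.4 CPM in co-culture and 139.97 in isolation (log2 -2.85 ± 0.16) in 22 and 24.8 CPM in co-culture and 82.7 in isolation (log2 -1.74 ± 0.15) in 45. Of 6 tested E-cadherin repressors 2 were higher and 1 lower in 35, 1 higher and 3 lower in 22, and none higher and 1 lower in 45. SNAI2, which encodes Slug, had 13 CPM in co-culture and 37.7 in isolation (log2 -1.54 ± 0.10) in label 35 and 10.9 CPM in co-culture and 25.3 in isolation (log2 -1.21 ± 0.10) in label 22. Polarity complex genes had 3 higher and 1 lower in 45 and 8 of 13 higher and none lower in 22, led by LLGL2, the basolateral polarity gene, with 40.5 CPM in co-culture and 11.6 in isolation (log2 1.80 ± 0.17). In label 35 polarity genes had 4 higher and 4 lower. Of 13 tested adherens junction partners 6 were higher and 3 lower in 35, 2 higher and 4 lower in 22, and none higher and 2 lower in 45. Of 7 other tested claudins 4 were higher and 2 lower in 35, 3 higher and 2 lower in 22, and 2 higher and 2 lower in 45. Of 6 tested EPCAM relatives and surface proteases 5 were higher and 1 lower in 35, 2 higher and 1 lower in 22, and none higher and 2 lower in 45.

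Of the marker lists, the leukocyte, endothelial, basal breast and mesenchymal lists were lowest in isolated 35 among the groups of the first table. The basal list summed to 370 CPM in co-culture 35 and 222 CPM in isolated 35, and the mesenchymal list to 5902 and 4733 CPM. The summed level of the leukocyte list was 184 CPM in co-culture 35 and 57.7 CPM in isolated 35, all but a small part of it CD68 and LAPTM5, while TYROBP was at 0 in both groups. Under the other labels that sum was lower in co-culture, at 266 against 344 CPM in 22 and 250 against 317 CPM in 45. The endothelial list summed to 6.33 CPM in co-culture 35 and 1.0 CPM in isolated 35, mainly KDR and PECAM1, with CDH5 at 0.0195 CPM in co-culture 35 and CLDN5 at 0 in both groups. Its sum was 6.23 CPM in co-culture against 13.5 in isolation in 22, and 8.31 against 8.81 CPM in 45. The luminal list summed to 1997 CPM in co-culture 35 and 1391 CPM in isolated 35. This sum was higher in co-culture under the other labels too, at 2834 against 1885 CPM in 22 and 1914 against 1357 CPM in 45. Of the 5 luminal genes tested, 3 were higher and 1 lower in co-culture under each label. The fibroblast list was lower in co-culture 35 (9.84 CPM) than in isolated 35 (12.4 CPM). Over both tables the basal breast list summed to 198 to 370.5 CPM, the fibroblast list to 8.61 to 19.7 CPM and the mesenchymal list to 4089.6 to 7239.7 CPM. Their part in the changes above was not tested.

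Against Pop, 23.2% of all genes were higher and 25.5% lower in 03, 18.8% and 23.5% in 10, and 21% and 24.2% in 13. Lineage 03 had none higher and 9 lower of 10 tested desmosome genes, including PKP2 at 13.2 CPM against 61.3 in Pop (log2 -2.21 ± 0.13). That list did not include plakoglobin (JUP), which was higher in 03 and is given below. Lineages 10 and 13 each had 2 higher and 5 lower, including periplakin (PPL) at 6.98 CPM against 39.1 in Pop (log2 -2.48 ± 0.22) in 10 and 6.46 CPM against 39.1 in Pop (log2 -2.59 ± 0.22) in 13. EPCAM relatives and surface proteases were lower for 5 of 6 tested and higher for none in both 10 and 13, and 03 had 2 higher and 2 lower. Junction scaffolds and other membrane proteins had 5 higher and 2 lower in 03, 3 higher and 4 lower in 10 and 1 higher and 5 lower in 13. ESAM was the gene of that list that recurred, at 14.3 CPM against 81.1 in Pop (log2 -2.50 ± 0.13) in 03, 30.8 CPM against 81.1 in Pop (log2 -1.40 ± 0.12) in 10 and 6.78 CPM against 81.1 in Pop (log2 -3.58 ± 0.14) in 13. CXADR, a virus receptor of the tight junction, was higher in 03, at 23.8 CPM against 5.61 in Pop (log2 2.08 ± 0.12). E-cadherin repressors had 2 higher and 1 lower in 03, 2 higher and 1 lower in 10 and 4 higher and 1 lower of 5 tested in 13. Plakoglobin (JUP), which binds cadherins in both adherens junctions and desmosomes, had 135 CPM against 42.8 in Pop (log2 1.65 ± 0.07) in 03, 17.8 CPM against 42.8 in Pop (log2 -1.27 ± 0.08) in 10 and 24.4 CPM against 42.8 in Pop (log2 -0.81 ± 0.07) in 13. Polarity genes had 5 higher and 4 lower of 13 tested in 03, 4 higher and 1 lower in 10 and 4 higher and 2 lower in 13. Adherens junction partners had 8 higher and 3 lower of 13 in 03, 2 higher and 7 lower in 10 and 3 higher and 8 lower in 13. Other claudins had 2 higher and 1 lower of 8 in 03, 1 higher and 4 lower in 10 and 2 higher and 2 lower in 13. Epithelial regulators had 2 higher and 2 lower of 7 in 03, none higher and 4 lower in 10 and 1 higher and 2 lower in 13. The leukocyte marker sum was 219.7 CPM in 03, 85.4 in 10 and 96.4 in 13, against 220.1 CPM in Pop, and that of the endothelial list 1.36 in 03, 3.49 in 10 and 1.73 in 13, against 8.38 CPM in Pop. Their part was not tested.

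Genes with the most similar pattern were found from the root mean square difference of centred log2 CPM over all libraries of a table, among genes with a group mean of at least 5 CPM. Over the 18 libraries of the first table IGFBPL1 was nearest to OCLN (0.215), SRGN to CLDN1 (0.277), TPD52L1 to CLDN7 (0.319), BBC3 to F11R (0.267), CEP19 to EPCAM (0.157) and DUXAP8 to LSR (0.841, so no gene was close). Over the 12 libraries of the second table KANK1 was nearest to OCLN (0.201), SORBS2 to CLDN1 (0.249), HEG1 to CLDN7 (0.246) and LRFN4 to LSR (0.116). Libraries share their groups, so these are descriptions.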

How the data were processed

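RNA of 30 libraries was sequenced from 500 ng of RNA with a stranded mRNA kit and paired reads of 75 nt, per the labels' protocols. The authors deposited 2 tables of estimated counts per gene, made separately and scaled by gene length. STAR 2.6.1d, Salmon 1.4.0 and GRCh38 are named, per the submitters' processing notes, and whether counting used the strand is not given in the sources used here. Some gene names of the second table had been turned into dates, none of them of the genes described.

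Counts were rounded and tested within each table with edgeR 4.0.16 (TMM, filterByExpr, quasi-likelihood test with a robust fit, all groups of 1 table together, R 4.3.3). P-values were adjusted by Benjamini-Hochberg over the 14570 and 14638 genes tested, with a threshold of 0.05. Errors of log2 fold changes are standard errors, and mean ± values are SD with n = 3. CDH1 was compared with lineages 10 and 13 by depth-scaled count ratios with exact intervals for counting error. Flanking genes are the nearest tested protein-coding genes on both sides, up to 50 in all. Other genes named are, per list and comparison, among the 3 with the smallest p at a group mean of at least 5 CPM. Alternatives were DESeq2 1.42.0, RLE normalization, other filters, a least fold of 1.5, fits of fewer groups, leaving out each library and a replicate block. Same-numbered libraries deviated together, with correlations above 0.1 for every pair, between co-culture 22 and co-culture 45 only. A replicate block, shared by all groups of a table, changed no call in that comparison. Such a shared block cannot show the effect of a pairing between those groups alone. The genes and lists were chosen with earlier results of these data known. The values of 1 gene of the marker lists are not reported here.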

Additional observations from a re-analysis of the deposited data

Results flagged for a closer look

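The co-culture change relative to isolation differed between the labels 22, 35 and 45 for 9 of the 10 genes, by edgeR's F test of the interaction adjusted over all genes tested. The adjusted p was 1.9e-12 for LSR, 3.4e-09 for CLDN1, 3.8e-08 for CLDN7, 1.7e-07 for F11R and 1.2e-06 for CDH1. It was 0.00033 for EPCAM, 0.0016 for OCLN, 0.021 for TJP1 and 0.046 for CLDN4. Leaving out 1 library left 7 to 9 genes, with CLDN4 lost in most such fits (highest adjusted p 0.12) and TJP1 lost without isolated 35 replicate 1 (0.053) or 2 (0.088) or co-culture 35 replicate 1 (0.081). Over all genes tested, 55.2% passed the same test. In LSR the change was largest in 45, and in CLDN1, CLDN7, F11R and OCLN it was largest in 35. CDH1 was the gene that was higher in one label (35) and lower in the other two (22 and 45).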

How the results depend on the processing

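Of 180 changes of the 10 genes between groups or labels taken in pairs, 118 were called and none of these reversed under any setting tried. Of the 118, 96 kept their call under every setting in which the gene was tested, except a test against a least fold of 1.5. The other 22 lost it under at least 1 other setting. CDH1 and MARVELD2 did not reach 5 CPM in 3 libraries, so the stricter filter left them untested and says nothing about their calls. Of the 62 not called, 11 gained a call under some setting. Testing against a least fold of 1.5 left 3 of 8 genes for co-culture 22 over isolated 22 and 1 of 6 for 45. It left 1 of 2 for the response of 22 minus that of 45, 3 of 6 for isolated 22 over 45 and 5 of 9 for isolated 35 over 45. For co-culture pairs it left 1 of 2 (22 over 35), 1 of 4 (22 over 45) and 1 of 3 (35 over 45). In the second table it left 3 of 5 (03 over Pop), 4 of 7 (10 over Pop), 3 of 8 (03 over 10), 4 of 8 (03 over 13) and 3 of 8 (10 over 13). Over all genes the same test called 2032, 4025 and 1100 for co-culture over isolation in 22, 35 and 45, 3093, 282 and 2437 for the responses of 22 minus 35, 22 minus 45 and 35 minus 45, 3791, 1126 and 2665 for the isolated pairs, 567, 383 and 256 for the co-culture pairs, 1824, 1427 and 1729 for 03, 10 and 13 over Pop, and 2333, 2468 and 993 for 03 over 10, 03 over 13 and 10 over 13. Without the filter on low counts 1 gene was called for the response of 22 minus 45 and 1 for co-culture 22 over 35. With a stricter filter (5 CPM in 3 libraries), which tests fewer genes, 2 were called for co-culture 22 over 45 and 3 for 03 over Pop. The calls missing there were those of CDH1 and MARVELD2, which this filter removed before testing. With the compared groups alone, 1 was called for co-culture 22 over 35, and 1805 of all genes for co-culture 22 over 45. Without co-culture 35 in the fit, 1 was called for the response of 22 minus 45. A fit without either group labelled 35 was added after the data were seen, and called the same number within 1.5 times in each of the 5 comparisons it allows, and the spans without label 35 were added then too. In the F test over the 3 responses, CLDN4 also lost its call with RLE normalization (0.059), the stricter filter (0.060) and DESeq2 (0.051). Leaving out 1 library gave 7 to 9 genes in that test, 1 to 3 genes for the response of 22 minus 45, 1 to 2 for co-culture 22 over 35 and 5 to 9 for 10 over 13. Apart from CDH1 and MARVELD2 under the stricter filter, the cause of these shifts was not tested.

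With a replicate block, CLDN7 gained a call in the response of 22 minus 45 (adjusted p = 0.042) and CLDN1 in isolated 22 over 45 (0.041), while MARVELD2 in 10 over Pop (0.068) and CLDN7 in 10 over 13 (0.050) lost theirs, and the block changed no other call. CDH1 in lineages 10 and 13 is limited by depth, with 2 counts in each.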
